A study of Bos taurus with 10 samples.

Results

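NR3C1 encodes the glucocorticoid receptor and is 1 of 6732 genes with values in this study. Its symbol stands on 4 probe sets of the human array used, and the 3 with an intensity are described here, out of 10186 probe sets with values after manufacturer's controls were left out. They are 201865_x_at, 211671_s_at and 216321_s_at, and 201866_s_at was blank on every array. All 3 were bright enough to be tested. The gene was picked because it was present in every adult tissue and near absent in embryos, so that contrast is described below without a test.

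The study hybridised total RNA of cattle (Bos taurus) across species, to probe sets designed for human genes. The embryo group held 3 arrays of pooled RNA from embryos whose oocytes were fertilized in vitro (IVF). The adult side held spleen, muscle, lung, liver, kidney, heart and brain, with 1 array for each. Among the sample labels only that of brain says adult, while the series title says it of the tissues together; breed, age, sex, treatment and embryo stage are not given in the labels. Precision is limited by how few arrays there are, the embryo arrays may share a pool of RNA, since the labels do not settle it, and p-values measure only the spread between these arrays, which may be technical among the embryos.

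The glucocorticoid receptor is a nuclear receptor for cortisol, the main glucocorticoid of cattle. Without hormone it waits in the cytosol, folded by HSP90, HSP70-type chaperones and their co-chaperones. With hormone it enters the nucleus through the importin pathway, binds DNA and recruits coactivators or corepressors. It raises metabolic and anti-inflammatory genes and restrains the inflammatory transcription factors NF-κB and AP-1. In the adult it acts in nearly every organ, on glucose production in liver and on protein breakdown in muscle among others, and its gene is broadly transcribed.

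The array labels were checked against marker genes. Summed embryo markers (7 genes with values, among them KRT8, SOX2 and TFAP2C) read 3903 to 4208 in embryos, against 129 to 547 in tissues. Summed brain, heart, liver, lung and muscle markers were each highest in the tissue of that name. Kidney markers (5 genes with values) were highest in spleen and spleen markers (3 genes with values) in liver, so those labels were not borne out by the few markers that could be read. Embryo arrays resembled each other more (Spearman correlation over tested probe sets 0.80 to 0.92) than tissues resembled each other (0.31 to 0.72). For RNA quality, the GAPDH control read at the 5′ end was 0.461 to 0.488 of its 3′ end in embryos and 0.287 to 0.471 of it in tissues.

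All NR3C1 probe sets were above the array median in all 7 tissues and dim on all 3 embryo arrays. Levels below are quantile normalised intensities in arbitrary units, which share a common distribution across arrays. The brightest probe set, 211671_s_at, read 751 in muscle, 748 in spleen, 743 in kidney, 686 in brain, 500 in lung, 397 in heart and 354 in liver. On the embryo arrays it read 18.7, 24.5 and 16.1. The groups did not overlap, and the lowest tissue stood 14.4-fold above the highest embryo array.

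The probe set 201865_x_at read 697 in spleen, 643 in muscle, 596 in brain, 548 in lung, 530 in kidney, 383 in liver and 349 in heart, against 26.9, 27.6 and 29.9 in embryos. Here too the groups were apart, by 11.7-fold between the lowest tissue and the highest embryo array. The dimmest, 216321_s_at, read 351 in muscle, 342 in lung, 332 in brain, 263 in spleen, 253 in heart, 178 in kidney and 170 in liver, against 19.5, 20.3 and 18.3 in embryos. Its gap between the groups was 8.38-fold.

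On each embryo array the NR3C1 probe sets lay between the 7.59th and 11.7th percentile of all probe sets of that array. On the tissue arrays 201865_x_at and 211671_s_at lay between the 85.0th and 96.3rd percentile and 216321_s_at between the 57.6th and 85.2nd. Without detection calls, an embryo intensity of this size cannot be told from background, so the folds above may understate the gap. On the log2(intensity + 72.2) scale used for all differences here, which shrinks the change of dim probe sets, embryos minus tissues came to -2.82 for 211671_s_at, -2.57 for 201865_x_at and -1.87 for 216321_s_at. The log2 values had an SD of 0.02 to 0.07 among the 3 embryo arrays and 0.33 to 0.41 among the 7 tissues. In whole tissue and pooled embryos, fewer cells that express a gene and less RNA per cell cannot be told apart.

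**Figure D1:**
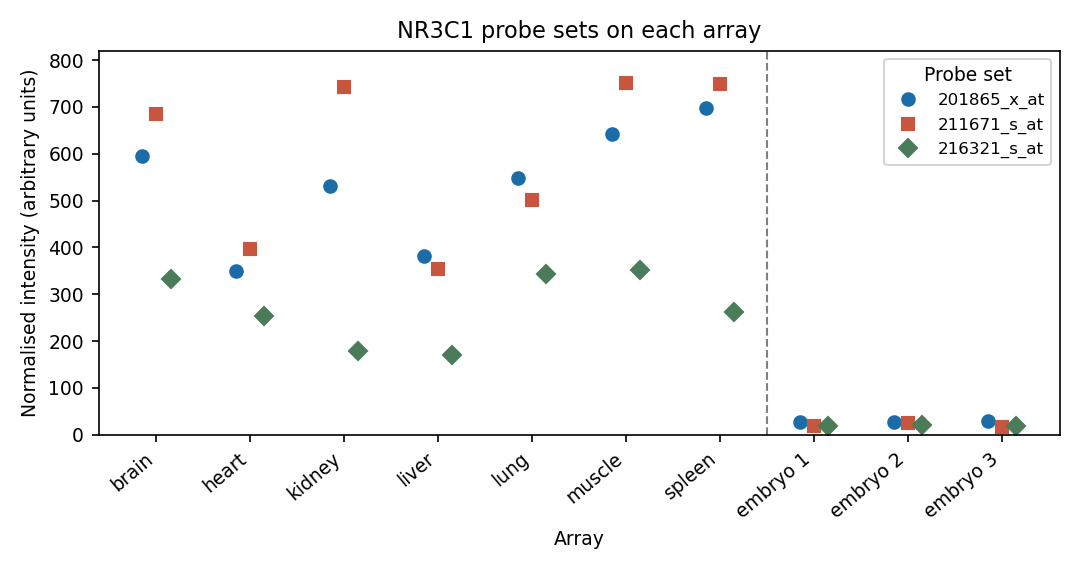
Quantile normalised intensity (arbitrary units) of the 3 NR3C1 probe sets on each of the 10 arrays, with tissues left and embryos right of the dashed line. Each point is 1 probe set on 1 array; the embryo points lie between 16.1 and 29.9 units and the tissue points between 170.2 and 751.

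Fibroblast markers moved the same way between embryos and tissues. The fibroblast marker genes with values were COL1A1, COL1A2, COL3A1, DCN, FBLN1, PDGFRA and THY1. Of these 7, 5 were lower on all embryo arrays than in all tissues, as were 5.66% of all genes with values. The summed level of the 7 was 493 to 530 in embryos against 1645 to 6535 in tissues. Endothelial markers (4 genes with values) summed to 332 to 385 in embryos and 390 to 5327 in tissues. Of the 4, 1 was apart in this way, beside the same 5.66%. Leukocyte markers (5 genes with values) summed to 479 to 588 and 399 to 717, and the groups overlapped. No marker of these lists was at 0 on any array. The part of these cells in the NR3C1 difference was not tested.

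The highest tissue exceeded the lowest by 2.12-fold for 211671_s_at, 1.998-fold for 201865_x_at and 2.06-fold for 216321_s_at. As deposited these ranges were wider, at 3.11-fold, 2.48-fold and 3.44-fold, and the gaps between the lowest tissue and the highest embryo array were narrower, at 11.3-fold, 7.80-fold and 5.73-fold. The SD over the 7 tissues was 175 units (29.3% of the mean of 597) for 211671_s_at, 129 units (24.1% of 535) for 201865_x_at and 75.8 units (28.1% of 270) for 216321_s_at. With 1 array per tissue there is no spread within a tissue, so no difference between tissues was tested.

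Averaged over the 3 probe sets as log2 differences from each probe set's own tissue mean, the order was muscle at 0.32 ± 0.04 (SD over 3 probe sets), spleen at 0.24 ± 0.20, brain at 0.22 ± 0.05, lung at 0.06 ± 0.24, kidney at -0.02 ± 0.38, heart at -0.33 ± 0.25 and liver at -0.49 ± 0.11. Probe sets of 1 gene on the same arrays are not replicates, so these SDs show only how far the probe sets differed. Muscle, brain and spleen were above the tissue mean by all 3 probe sets, spleen by only 0.0023 on 216321_s_at, and liver and heart were below it by all 3. Each neighbouring pair in this order lay closer together than the larger of its SDs.

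Kidney was the tissue on which the probe sets differed most. It lay at 0.33 by 211671_s_at, at 0.02 by 201865_x_at and at -0.42 by 216321_s_at. Lung ran the other way, at -0.18, 0.06 and 0.31 by the same probe sets. Over the 7 tissues, the profiles of 201865_x_at and 211671_s_at had a Pearson r of 0.89, while 216321_s_at had an r of 0.53 with the former and 0.34 with the latter. In the values as deposited these were 0.82 and 0.75, so how far this probe set differed depended on the scaling. Which receptor transcripts each probe set reads in cattle was not determined here.

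**Figure D2:**
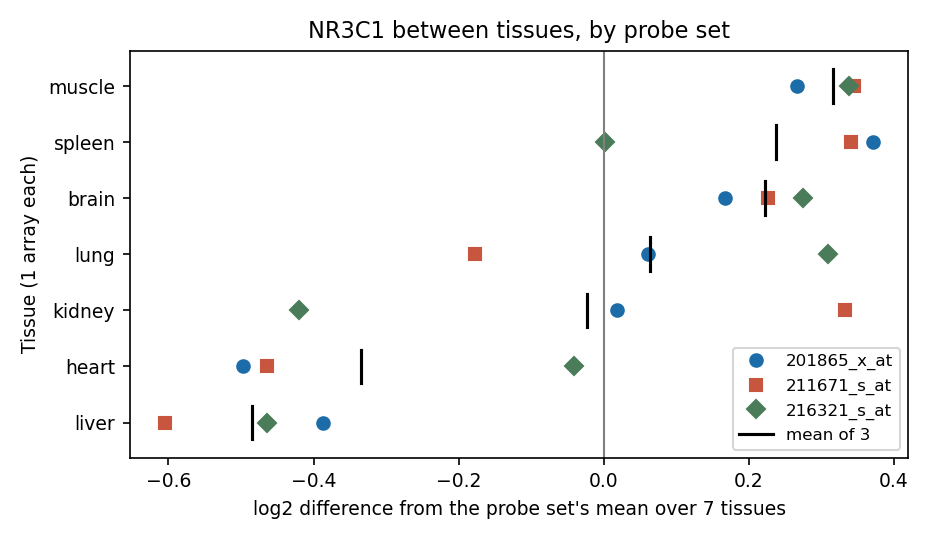
NR3C1 in the 7 tissues (1 array each), as the log2 difference of each probe set from its own mean over tissues; points are probe sets and black bars their mean. Liver lies lowest, at a mean of -0.49, muscle highest, at 0.32, and the kidney points spread from -0.42 to 0.33.

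The order of the tissues depended on the scaling of the arrays. In the values as deposited, brain was highest by all 3 probe sets, with intensities of 822, 713 and 403, and liver lowest, at 265, 288 and 117. Those deposited levels rose with the median intensity of the whole array, which ran from 99.2 in liver and 110 in heart to 183 in brain (Spearman rho = 0.96, 0.96 and 0.93 for 201865_x_at, 211671_s_at and 216321_s_at over 7 tissues). After quantile normalization the same rho was 0.82, 0.71 and 0.79. Liver was lowest by 211671_s_at and 216321_s_at under quantile normalization, as deposited and after scaling to a common median. By 201865_x_at heart was lowest under quantile normalization and the common median. The part of array brightness in the order of the tissues was not tested.

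**Figure D3:**
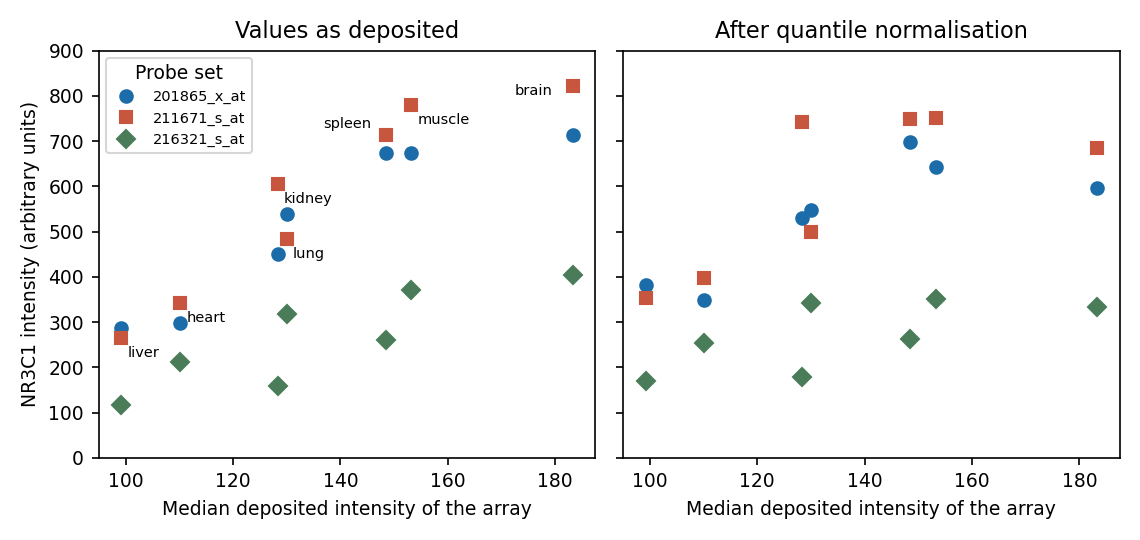
NR3C1 intensity (arbitrary units) of the 3 probe sets in the 7 tissues against the median deposited intensity of each tissue's array, as deposited (left, tissues named at 211671_s_at) and after quantile normalization (right). As deposited, brain is both the brightest tissue array, at a median of 183, and the highest in NR3C1, and liver, at 99.2, the lowest in NR3C1.

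Genes whose profile was most like that of 211671_s_at were sought among 4726 other tested genes, each represented by its brightest probe set. Over the 10 arrays, the highest Pearson correlations were those of MBNL2, a splicing regulator (r = 0.98), GABARAP, a protein of autophagosome formation (0.97), DAZAP2 (0.96), ARHGEF10L (0.96), LRP5L (0.95) and BCL6, a transcriptional repressor (0.94). The embryo gap dominates this measure, as all 6 were lower on every embryo array than in every tissue. MBNL2 read 12.4, 0.800 and 8.46 in embryos and 132 to 294 in the tissues. Another MBNL2 probe set read 50.65 to 72.9 in embryos and 101 to 172 in the tissues. It differed by -0.59 (limma adjusted p = 0.0831), so how low MBNL2 lay in embryos depended on the probe set. GABARAP read 237, 299 and 195 in embryos and 768 to 1410 in the tissues. DAZAP2 read 260.5, 380 and 170.0 in embryos and 1557 to 2964 in the tissues. Their correlations over the 7 tissues alone were lower, from 0.36 for LRP5L to 0.75 for MBNL2. Over all genes the median r was -0.02 over the 10 arrays, and 12 genes (0.254%) exceeded 0.9.

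Over the 7 tissues alone the most alike was GLUL, glutamine synthetase, an enzyme that makes glutamine and whose gene glucocorticoids induce in muscle. It was highest in muscle (2248) and spleen (2157), followed by kidney (1650), brain (1614), lung (985), heart (685) and liver (641). That is the order of NR3C1 by 211671_s_at in every place (Pearson r = 0.98, Spearman rho = 1). Muscle, spleen and kidney were near ties in NR3C1, at 751, 748 and 743. GLUL was picked as the highest of 4726 genes over 7 arrays, so the match is a description and supports no link to the receptor. The likeness was lower for 201865_x_at (r = 0.93) and 216321_s_at (r = 0.39). In the values as deposited r was 0.99 for 211671_s_at, with a rho of 0.89 and so not the same order, 0.96 for 201865_x_at and 0.73 for 216321_s_at. A dimmer GLUL probe set was highest in spleen and lowest in muscle, so the likeness rests on the brighter of its probe sets. The next were WDR70 (r = 0.98), EIF4G2, a translation factor (0.97), KRTAP5-9 (0.97), SLC25A36, a mitochondrial carrier (0.96), and FOXJ3, a transcription factor (0.95), and 24 genes (0.508%) exceeded 0.9. In embryos these did not follow NR3C1. EIF4G2 read 738, 647 and 596 in embryos and 264 to 663 in tissues, and FOXJ3 read 544, 623 and 479 against 207 to 820. Few of these names were stable, since of the first 6 only 1 stayed among the first 6 with Spearman in place of Pearson over the 10 arrays, and 1 over the 7 tissues.

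**Figure D4:**
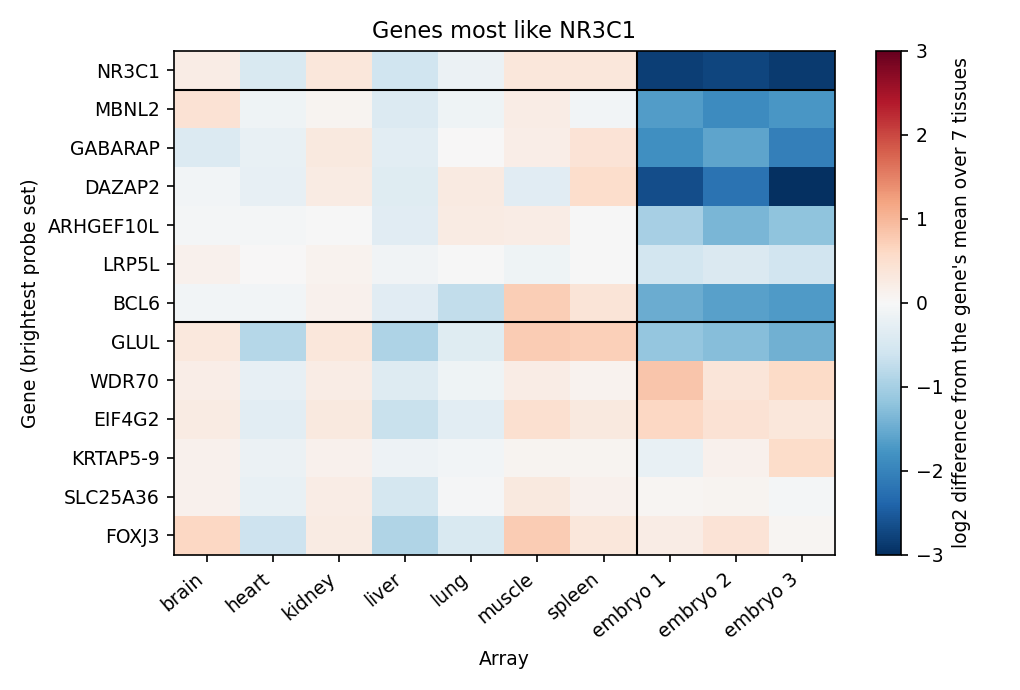
NR3C1 (top row, 211671_s_at), the 6 genes most like it over 10 arrays (middle) and the 6 most like it over 7 tissues (bottom), as the log2 difference of each array from the gene's own mean over 7 tissues. The middle genes are low in all 3 embryo arrays, and of the bottom genes GLUL is low in all 3 while WDR70 is high.

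The genes around the receptor were grouped by role into 10 lists of 267 genes in all. Of these, 150 had values and 113 passed the filter on dim probe sets. Embryos were set against tissues with limma over all 6775 tested probe sets, with a Benjamini-Hochberg adjusted p of 0.05 as the threshold and the brightest tested probe set standing for a gene. A gene bright on the 3 embryo arrays alone could pass the filter on dim probe sets, and so could a gene bright in tissues alone, while a gene bright in 1 tissue alone could not. Of the called genes, 4 (KPNA2, PIAS2, SIRT1 and SMARCE1) passed it through the embryo arrays alone and 5 (BCL6, IRS2, RELA, SMARCA2 and ZBTB16) through tissues alone, so counts over the tested genes are descriptions and support nothing. For these 9 genes the SE and adjusted p below come from limma with no filter.

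With no filter, 7 of the 150 pathway genes with values rose in embryos and 7 fell, 4.67% each. Over all 6732 genes with values 5.01% rose and 1.71% fell, so the share that rose was near the background. The median log2 difference was -0.04 for the 150 genes and -0.05 over all. Among the 113 genes that passed the filter 9 rose and 7 fell, or 7.96% and 6.19%, beside 7.87% and 3.19% of all 4727 tested genes. With the embryo arrays averaged and counted as 1 sample, limma called 1 of the 113 higher (PIAS2) and 0 lower, and 12 had an unadjusted p under 0.05. With the spread taken from the embryo arrays alone it called 29 higher and 27 lower.

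The supply of hormone could hardly be read. Of 18 genes of steroid synthesis, activation and transport, 7 had values and 3 were tested, with none called. HSD11B1 and HSD11B2, the enzymes that activate and inactivate cortisol, were not analysed here for want of a value under their symbols. SERPINA6, the liver-made globulin that carries cortisol in blood, read 905 in liver and 0.710 to 17.3 in the other tissues, and 9.49, 17.4 and 3.08 in embryos. It was too dim elsewhere to be tested.

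None of the 17 tested members of the nuclear receptor family was called, beside 7.87% higher and 3.19% lower over all tested genes. Differences ran from -1.53 for NR2F1 to 1.08 for ESRRG (both named after their values were seen), with a median of -0.05. NR3C2, the mineralocorticoid receptor, which also binds cortisol, did not pass the filter. It read 241 in heart, 166 in brain, 145 in kidney, 139 in lung, 80.8 in muscle, 43.3 in spleen and 21.0 in liver. On the embryo arrays it read 67.8, 80.5 and 71.3, inside the range of the tissues.

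Of 10 tested chaperones of the receptor, 2 rose in embryos and none fell, 20% higher beside 7.87% of all tested genes. The median difference was 0.58, beside 0.03 over all tested genes. With no filter 2 of 11 rose, 18.2% beside 5.01% of all genes, and the median was 0.74 beside -0.05. DNAJA1, a co-chaperone of HSP70, read 1418, 1482 and 1076 in embryos and 132 to 441 in tissues, and embryos exceeded tissues by 1.81 ± 0.29 on the log2 scale (SE, limma adjusted p = 0.00205). A second, dimmer DNAJA1 probe set was not tested and read 36.9 in embryos and 63.8 in tissues. HSPA4, an HSP70-type exchange factor, read 959, 968 and 800 against 164 to 428, and its difference was 1.48 ± 0.26 (SE, limma adjusted p = 0.00378). Its call was lost without the first or the second embryo array. HSP90AA1 and HSP90AB1, the HSP90 isoforms that hold the receptor in its hormone-binding state, did not pass, at 0.75 (limma adjusted p = 0.0787) and 0.74 (0.0931). HSP90AA1 passed without the brain array (limma adjusted p = 0.0243) and with the mean of its probe sets (0.0411). FKBP4, a co-chaperone linked to receptor transport, differed by 0.09 (limma adjusted p = 0.875) and PTGES3, the co-chaperone p23, by 0.43 (0.266).

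The nuclear transport list held 13 tested genes, with 3 called higher in embryos (23.1%) and 1 called lower (7.69%). Over all tested genes these shares were 7.87% and 3.19%. Limma with no filter called 2 of the 13 higher (15.4%) and 1 lower (7.69%), beside 5.01% and 1.71% of all genes. RAN, the small GTPase that gives transport its direction, read 695, 641 and 510.0 in embryos and 79.3 to 273 in tissues (log2 difference 1.42 ± 0.27, SE, limma adjusted p = 0.0057). KPNA2, an importin alpha, read 250, 295 and 256 against 36.4 to 133 (1.29 ± 0.23, SE, limma with no filter, adjusted p = 0.00591), and its other probe set rose by 1.69. With a filter at 2 arrays the KPNA2 call was lost without the second embryo array (limma adjusted p = 0.0715). NUP153, a protein of the nuclear pore, rose by 0.84 (limma adjusted p = 0.0425), a call lost without any of the embryo arrays, without brain, kidney, liver or lung, with arrays set to a common median, with no offset and with no filter. KPNB1, importin beta, fell by 1.07 at its brightest probe set (limma adjusted p = 0.0353), but 2 other probe sets of it were called higher, at 1.06 and 0.98, and the mean of all its probe sets differed by 0.05. Its direction is therefore uncertain, and its call was also lost as deposited, without any of the embryo arrays and without heart, lung or muscle. The call of RAN was lost without the first or the second embryo array.

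Among 16 tested coactivators and chromatin remodellers 1 rose and 1 fell, 6.25% each beside 7.87% and 3.19% of all tested genes. With no filter the same counts stood among 18, 5.56% each beside 5.01% and 1.71% of all genes. SMARCA2, an ATPase of the SWI/SNF remodelling complex that opens chromatin at receptor target genes, read 24.7, 36.9 and 35.0 in embryos and 169 to 346 in tissues. The difference was -1.59 ± 0.20 (SE, limma with no filter, adjusted p = 0.000548), the groups did not overlap, and the other tested SMARCA2 probe set fell by 1.41 as well. SMARCA4, the alternative ATPase of that complex, differed by -0.29 (limma adjusted p = 0.449; it was chosen with its values known). SMARCE1, a subunit of the same complex, rose by 1.84 ± 0.33 (SE, limma with no filter, adjusted p = 0.00581), from 46.7 ± 51.8 (SD, n = 7) in tissues to 327 ± 42.7 (SD, n = 3) in embryos. With a filter at 2 arrays its call was lost without the first or the second embryo array (limma adjusted p = 0.0522 and 0.0634). The steroid receptor coactivators NCOA1 and NCOA2 did not pass, at 0.34 (limma adjusted p = 0.556) and -0.03 (0.951).

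Corepressors rose in 2 of 8 cases, 25% beside 7.87% of all tested genes. With no filter 1 of 9 rose, 11.1% beside 5.01% of all genes. SIRT1, a deacetylase, read 273, 259 and 271 in embryos and 38.0 to 64.8 in tissues, a difference of 1.44 ± 0.18 (SE, limma with no filter, adjusted p = 0.000548). HDAC3, the deacetylase of the NCOR complexes, rose by 0.78 (limma adjusted p = 0.0447), with 260, 343 and 159 on the embryo arrays and 65.0 to 173 in tissues. The groups overlapped, and the call was lost without any of the embryo arrays, without brain, kidney, liver, lung or spleen, with arrays set to a common median, with no offset, with no filter and with eBayes without trend and robust settings. Of 9 enzymes that modify the receptor or its partners 1 rose, 11.1% beside 7.87% of all tested genes. With no filter it was 1 of 13, 7.69% beside 5.01% of all genes. The called gene was the SUMO ligase PIAS2, at 1.83 ± 0.18 (SE, limma with no filter, adjusted p = 7.78e-05). PIAS2 read 563.5, 556.5 and 415 in embryos and 61.3 to 122 in tissues. PIAS1 of the same list was not called at its brightest probe set (-0.69, limma adjusted p = 0.285). Another PIAS1 probe set lay at -1.45, with 30.5, 7.66 and 0.32 in embryos and 47.2 to 299 in tissues (named after its values were seen). PIAS1 was called lower with the mean of its probe sets. Without any of the embryo arrays, PIAS2, SIRT1, SMARCE1 and KPNA2 no longer passed the filter on dim probe sets and were not tested.

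Among 11 partner transcription factors 1 fell, 9.09% beside 3.19% of all tested genes. With no filter it was 1 of 13, 7.69% beside 1.71% of all genes. The called gene was RELA, the NF-κB subunit that the receptor restrains. It read 20.4, 23.2 and 59.9 in embryos and 125 to 180.0 in tissues (log2 difference -1.11 ± 0.19, SE, limma with no filter, adjusted p = 0.0044). A dimmer RELA probe set, not tested, read 98.3 in embryos and 44.6 in tissues. With the filter at 3 arrays the RELA call was lost without the first or the second embryo array. It was kept in those fits with a filter at 2 arrays, a setting chosen after seeing the data. YY1 of the partner list was not called at its brightest probe set (0.53, limma adjusted p = 0.0838; it was named after its values were seen). Another YY1 probe set was called higher (0.80, limma adjusted p = 0.0314), as was the mean of its probe sets. Of 28 genes that the receptor represses 10 had values and 4 were tested, and none of these was called.

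**Figure D5:**
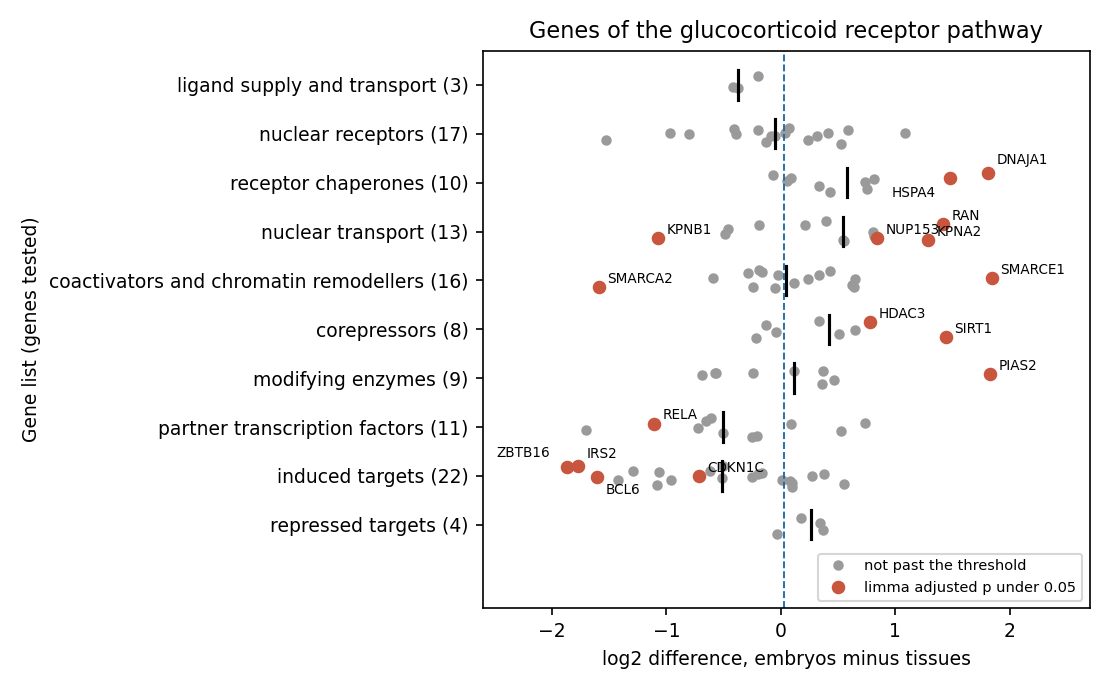
log2 difference, embryos minus tissues, of the 113 tested genes in 10 lists of the receptor's pathway; each point is 1 gene, red points passed the threshold, black bars are list medians and the dashed line is the median of all tested genes (0.03). Called genes of the induced targets all lie left of 0, and those of the receptor chaperones lie right of it.

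Of 33 genes with values that glucocorticoids induce, 4 fell with no filter (BCL6, IRS2, NFKBIA and ZBTB16) and none rose, 12.1% beside the 1.71% of all genes. Their median difference was -0.38, and 7 of the 33 (21.2%) were lower on all 3 embryo arrays than in all 7 tissues, as were 5.66% of all genes. NFKBIA, the inhibitor of NF-κB, was too dim to pass the filter, at 10.2, 1.44 and 1.38 in embryos against 73.9 to 589 in tissues (named after its values were seen). Among the 22 that passed the filter 4 fell (CDKN1C in place of NFKBIA) and none rose, 18.2% beside 3.19% of all tested genes. Of the same 22, 7 (31.8%) lay below all tissues, beside 6.77% of all tested genes. BCL6, IRS2 and ZBTB16 passed the filter through tissues alone, so the shares among the 22 are descriptions and support nothing. The count of 4 among the 22 became 2 without the first or the second embryo array and with the mean of each gene's probe sets. It became 7 without liver. All of the 4 calls were lost with averaged embryo arrays. Many of these genes respond to other hormones and cell states too.

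ZBTB16, a zinc finger transcription factor strongly induced by glucocorticoids in human cells, read 13.1, 37.0 and 5.69 on the embryo arrays. In tissues it ran from 141 in spleen to 375 in liver, with no overlap, and the difference was -1.87 ± 0.28 (SE, limma with no filter, adjusted p = 0.0017). IRS2, an adaptor of insulin signalling, read 49.2, 46.3 and 38.7 against 185 to 687 (-1.77 ± 0.33, SE, limma with no filter, adjusted p = 0.00675). Its other probe set went the other way (0.57, limma adjusted p = 0.194), and its call was lost without the first or the second embryo array and with the mean of its probe sets, and without spleen the other probe set was the brighter. BCL6, a repressor of inflammatory genes, was also among the genes most like NR3C1 over the 10 arrays, a measure that the embryo gap dominates. Over the 7 tissues alone its r was 0.66. It read 61.6, 50.3 and 45.1 on the embryo arrays. In tissues it ran from 154 in lung to 558 in muscle (-1.60 ± 0.27, SE, limma with no filter, adjusted p = 0.00421), while its other probe set differed by -0.18 (limma adjusted p = 0.732). CDKN1C, an inhibitor of the cell cycle, fell by 0.71 (limma adjusted p = 0.0426). That call was lost without any of the embryo arrays, without heart, kidney, lung or muscle, as deposited, with an offset 4 times larger, with no filter or a stricter one and with the mean of its probe sets. Its other probe set differed by -0.13.

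TSC22D3, also called GILZ, a mediator of the anti-inflammatory action of glucocorticoids, missed the threshold (-1.42 ± 0.44, SE, limma adjusted p = 0.0568). It read 18.2, 15.8 and 20.3 on the embryo arrays and 386 in spleen, 339 in lung, 221 in muscle, 201 in brain, 177 in kidney, 68.2 in heart and 19.6 in liver. Liver alone overlapped with the embryos, and without the liver array the difference was -1.66 (limma adjusted p = 0.00796). TSC22D3 also passed without heart (limma adjusted p = 0.042) and with no offset (0.0427). GLUL also missed the threshold, at -1.29 ± 0.39 (SE, limma adjusted p = 0.0528), although its embryo values of 536, 488 and 430 lay below all tissues. It passed without heart or liver (limma adjusted p = 0.033 and 0.0231), with arrays set to a common median (0.02), with the filter at the 75th percentile (0.0405) and with eBayes without trend and robust settings (0.0456).

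KLF9, a transcription factor induced in many cell types, differed by -0.17 at its brighter probe set (limma adjusted p = 0.753), which read 396, 420 and 361 in embryos and 286 to 906 in tissues. Its other probe set was called lower (-1.26, limma adjusted p = 0.00719), so its probe sets differed. DUSP1, a phosphatase of MAP kinases, differed by -0.52 (limma adjusted p = 0.287) and SGK1, a kinase of ion transport, by 0.10 (0.888). FKBP5, the co-chaperone and target that limits the receptor, and PER1, a clock gene induced by it, were not analysed here, as no value stood under their symbols alone.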

How the data were processed

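The authors deposited linear intensities, 1 for each probe set on each array. The labels name no software, background correction or scaling. The array holds 22283 probe sets; 10219 had values on all 10 arrays, 33 of them controls. Symbols came from the annotation of the human platform (8847 probe sets with 1 symbol, 479 with several, 860 with none). Of 4727 tested genes, 4465 symbols (94.5%) are in the bovine RefSeq table. Bovine transcripts that match a human probe poorly can read dim at any level. No genome build is named, so no coordinates are given, and no sequence is shown.

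Trimmed means (2% trim) spanned 1.90-fold over the arrays, more than a limit of 1.5, so arrays were quantile normalized, which hides differences in total signal. Values were taken as log2(intensity + 72.2), the offset being the median 25th percentile. The test took the 6775 probe sets that exceeded the median of an array on 3 or more arrays, with limma 3.58.1 in R 4.3.3 (two-sided, eBayes with trend and robust), checked on simulated data. Figures used matplotlib 3.10.9 in Python 3.11.15. Named genes were all NR3C1 probe sets, up to 4 called genes of each list and direction with the largest differences, 20 genes whatever their result, and the 6 most like NR3C1 over 10 arrays and over 7 tissues. Members and lists were chosen with earlier results of these data known. NR3C1 itself was not tested. Alternatives changed scaling, offset, filter, spread, probe set summary and each array in turn.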

Additional observations from a re-analysis of the deposited data

How the results depend on the processing

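The NR3C1 difference (-2.82 at 211671_s_at) moved with the offset, to -4.88 with none and -1.50 with 1 of 4 times the size, and to -2.42 for the mean of the 3 probe sets. Leaving out each array in turn gave -2.92 to -2.76. The counts of pathway genes (9 higher, 7 lower) became 1 and 0 with averaged embryo arrays and 29 and 27 with the spread from embryo arrays alone. Leaving out each array in turn gave 1 to 11 higher and 3 to 11 lower. Without the first, the second and the third embryo array, 1, 1 and 3 were higher and 3, 3 and 5 lower, and without liver 11 were lower. In those fits 5 of the 9 higher genes passed the filter. With a filter at 2 arrays, chosen after seeing the data, the same leave-outs gave 5, 4 and 8 higher and 5, 5 and 5 lower. Other scalings, offsets, filters and eBayes settings kept both counts within 1.5 times. Over the 10 arrays, 1 of the 6 genes most like NR3C1 was kept with Spearman and 5 as deposited; over the 7 tissues, 1 and 2 were kept. Signs turned for genes near 0 that were not called in these settings. As deposited, NCOA2 was at 0.16 and KLF9 at 0.030. Leaving out each array in turn gave -0.11 to 0.058 for NCOA2, -0.12 to 0.33 for SGK1 and -0.12 to 0.38 for FKBP4. With the filter at 2 arrays, SGK1 was at -0.12 without the first embryo array, FKBP4 at -0.12 without the second and NCOA2 at 0.021 without the third. KPNB1 turned to 0.049 with the mean of its probe sets, which differ in direction. The cause of the other changes was not tested. No paired analysis was possible because the labels link no embryo array to a tissue array, with 1 array for each tissue. Signal over background could not be judged without detection calls, so low embryo levels of NR3C1 are not separated from absence.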
